A study of Mus musculus with 6 samples.

Results

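The sarcoplasmic reticulum calcium cycle of heart muscle was described through 10 genes, Atp2a2, Pln, Sln, Ryr2, Trdn, Jph2, Casq2, Casq1, Hrc and Slc8a1, chosen by symbol for their role from the 46095 genes of the count table. RNA was measured by sequencing in 3 hearts labelled STAT3cKO, from mice whose cardiomyocytes lack STAT3 by conditional deletion, and 3 hearts labelled wild type, to find pathways that bear on heart function. STAT3 is a transcription factor that cytokines of the IL-6 family activate. Genotype is the single factor in the labels, which are silent on age, sex, strain, treatment, batch, the Cre line and the chambers taken. Nor is it stated that the 6 hearts are 6 animals. P-values may therefore reflect only the spread among these libraries, which may be technical.

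At each heartbeat, calcium that enters through the L-type channel opens the ryanodine receptor RyR2 in the sarcoplasmic reticulum, and the store releases the calcium that makes the sarcomere contract. The pump SERCA2 then returns calcium to the store, phospholamban and sarcolipin restrain that pump, and the sodium-calcium exchanger NCX1 carries the rest out of the cell. Less pump protein relative to phospholamban is a known feature of failing heart muscle.

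Total counts per heart ran from 15416877 to 18264052, and all 10 genes passed the low-count filter. Levels are CPM, read counts scaled to library size with TMM factors, which allow for the makeup of each library. Values for single hearts are given in the order of wild type replicates 1, 3 and 4 (the controls) and STAT3cKO replicates 3, 6 and 91 (the knockouts), and a log2 fold change below 0 means lower in STAT3cKO. Genes with a Benjamini-Hochberg adjusted p under 0.05 in edgeR's quasi-likelihood test over 14484 genes are called changed. Stat3 stood at 99.7, 85.8 and 97.5 CPM in the controls and 52.9, 63.8 and 59.6 CPM in the knockouts (log2 fold change -0.68 ± 0.10 SE, edgeR adjusted p = 0.000677). Reads assigned to Esr1, whose hormone-binding part is carried by tamoxifen-inducible Cre transgenes, stood at 1.21 to 7.67 CPM in wild type and 1405 to 2759 CPM in STAT3cKO, and their part in the results below was not tested. The difference between genotypes also varied with the annotated length of the transcript. Among 10 classes of tested genes of rising length, equal in size, the median log2 fold change went from 0.44 in the shortest to -0.31 in the longest, so many results are also given with an offset that removes a trend with transcript length and GC content from each heart. With it Stat3 was at -0.43 (edgeR adjusted p = 0.00811).

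Of the 10 genes, 3 fell in STAT3cKO hearts, 0 rose and 7 were not called, where 25.8% of all genes tested were called. The genes that fell were Atp2a2, Ryr2 and Casq1. Over all genes tested, 12.6% were called lower and 13.2% higher. The median log2 fold change of the 10 genes was -0.11, against 0.00 over all genes tested. With the length and GC offset, 1 of the 10 (Casq1) was called lower, where 7.91% of all genes were, and 1 (Slc8a1) higher, where 10.9% were. For 4 of the 10 genes every knockout value lay on the same side of every control value, which was so for 43.0% of all genes tested. Together the 10 genes took 2.26% to 2.39% of all counts in wild-type hearts and 1.70% to 1.88% in STAT3cKO hearts. Most of this drop was in Atp2a2 alone, which took 1.18% to 1.25% in wild type and 0.693% to 0.815% in STAT3cKO.

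**Figure D1:**
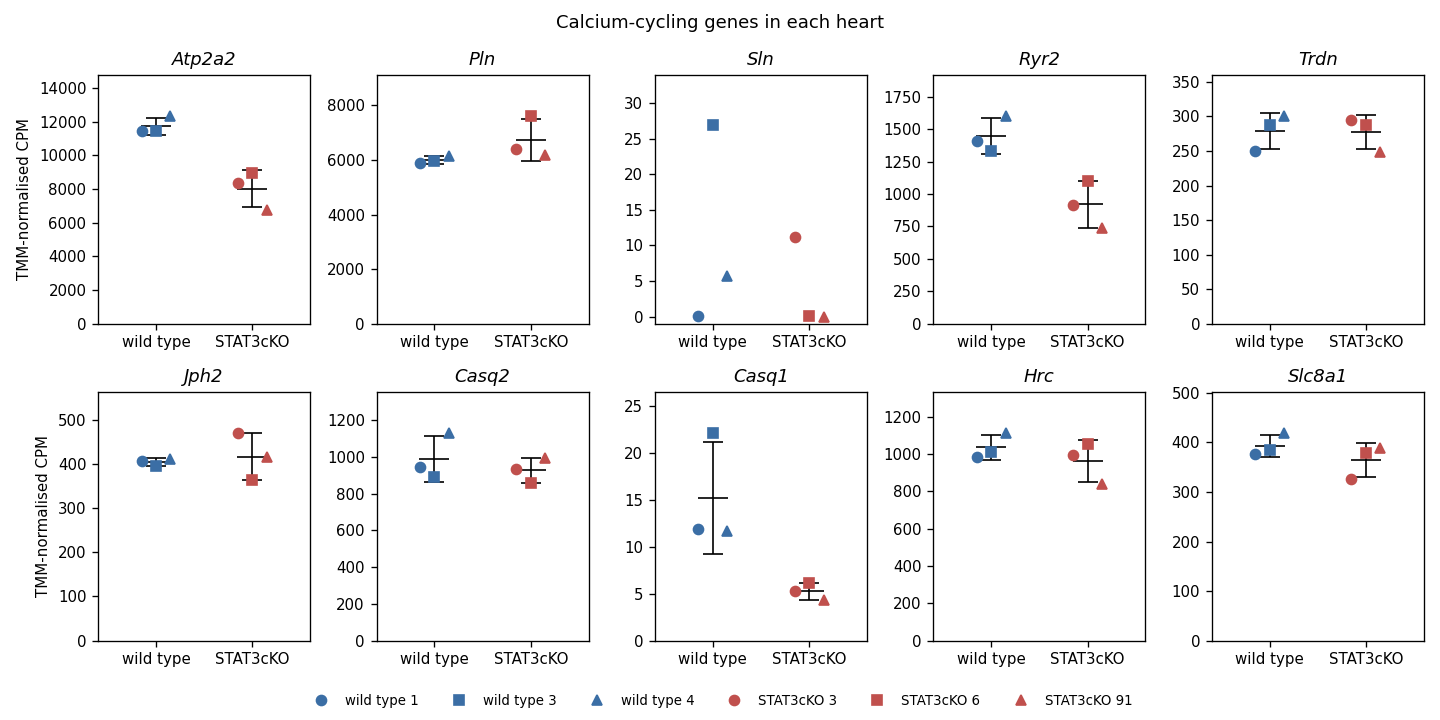
TMM-normalised CPM (y axes, each from about 0 and on its own scale) of the 10 genes in the 3 wild-type and 3 STAT3cKO hearts, with a symbol for each heart and bars for the mean and SD (no bars for Sln). Atp2a2, Ryr2 and Casq1 were lower in all knockouts than in all controls, and Sln was near 0 in 1 wild-type and 2 STAT3cKO hearts.

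The promoters of the genes that carry these results are shown first, since STAT3 acts by binding DNA. RefSeq start sites on GRCm38.p6 gave the 250 bases before the start for 7 of the 10 genes; none was shown for Atp2a2, Sln and Trdn. Those of the release channel, of the pump inhibitor and of both calsequestrins read as follows, 5′ to 3′ on the gene's strand, with a match to the MEF2 motif in capitals.
Ryr2 (chr13:12106946-12107195, minus strand): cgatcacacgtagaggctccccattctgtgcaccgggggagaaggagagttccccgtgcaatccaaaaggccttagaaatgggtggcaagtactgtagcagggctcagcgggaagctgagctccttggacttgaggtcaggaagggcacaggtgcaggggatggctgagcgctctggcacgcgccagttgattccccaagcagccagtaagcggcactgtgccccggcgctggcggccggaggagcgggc
Pln (chr10:53337436-53337685, plus strand): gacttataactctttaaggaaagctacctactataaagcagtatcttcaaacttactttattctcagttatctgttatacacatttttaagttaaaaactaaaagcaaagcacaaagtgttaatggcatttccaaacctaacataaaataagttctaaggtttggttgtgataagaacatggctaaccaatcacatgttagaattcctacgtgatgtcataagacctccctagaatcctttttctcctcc
Casq1 (chr1:172219896-172220145, minus strand): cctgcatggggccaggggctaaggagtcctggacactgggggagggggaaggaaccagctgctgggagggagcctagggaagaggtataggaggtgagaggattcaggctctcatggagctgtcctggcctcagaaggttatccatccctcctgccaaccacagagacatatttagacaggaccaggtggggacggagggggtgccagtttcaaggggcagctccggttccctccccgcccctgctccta
Casq2 (chr3:102086165-102086414, plus strand): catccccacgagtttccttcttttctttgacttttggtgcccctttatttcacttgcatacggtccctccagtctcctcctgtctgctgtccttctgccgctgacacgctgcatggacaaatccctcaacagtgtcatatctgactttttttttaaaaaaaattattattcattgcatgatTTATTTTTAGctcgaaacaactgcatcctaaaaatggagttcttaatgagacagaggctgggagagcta

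The STAT motif TTCNNNGAA was looked for on both strands, and so were the MEF2 motif and the CArG box bound by serum response factor. None of the 7 genes held the STAT motif in these 250 bases, where 7.02% of 32851 promoters held one. None held a CArG box (1.47% of promoters). Only Casq2 held the MEF2 motif (2.92% of promoters), 69 to 60 bases before its start. No match says only that these letters are not in this window.

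Atp2a2 encodes SERCA2, the pump that refills the store (GRCm38 chromosome 5, 122453513 to 122502225, minus strand). It was the most counted of the 10 genes and took 1.18% to 1.25% of all counts in wild type and 0.693% to 0.815% in STAT3cKO. Wild-type hearts held 11424, 11428 and 12319 CPM and STAT3cKO hearts 8337, 8948 and 6779 CPM. The groups did not overlap, and STAT3cKO replicate 91 was the lowest. The mean fell by 31.6%, from 11724 ± 515 to 8021 ± 1118 CPM (SD, n = 3 each); on the log2 scale it differed by -0.55 ± 0.12 (SE; edgeR adjusted p = 0.00706). The call held without any 1 heart (adjusted p at most 0.0352). The length and GC offset gave -0.34, which was not called (adjusted p = 0.0655, within 1.47e-05 to 0.0807 over all alternatives). Gene-level counts do not separate the heart isoform SERCA2a from the widely expressed SERCA2b. In bulk tissue, fewer cells of a type and less RNA per cell cannot be told apart.

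Pln encodes phospholamban, which slows the pump until it is phosphorylated (chromosome 10, 53337686 to 53345999, plus strand, inside the region of Cep85l on the other strand). Wild-type hearts held 5889, 5980 and 6166 CPM and STAT3cKO hearts 6419, 7604 and 6184 CPM. The ranges were separated by a narrow margin, between wild type replicate 4 and STAT3cKO replicate 91. The log2 fold change was 0.16 ± 0.11 (SE) and was not called (edgeR adjusted p = 0.306). With an offset on coding length in place of transcript length, added after the data were seen, it turned to -0.36 and was called lower (adjusted p = 0.0451). Its longest coding region is 156 nt, in a longest transcript of 2334 nt. Cep85l held at most 377 counts in any heart, against at least 94062 for Pln.

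Set against the RNA of its target, Pln RNA stood higher in STAT3cKO hearts. The log2 ratio of Pln to Atp2a2 CPM ran -0.96, -0.93 and -1.0 across the controls and -0.38, -0.23 and -0.13 across the knockouts. There was thus 0.501 to 0.523 of a Pln count per Atp2a2 count in wild type and 0.770 to 0.912 in STAT3cKO, with no overlap. The difference was 0.71 on the log2 scale, or 1.64-fold (p = 0.1 in a two-sided exact permutation test, which 3 hearts against 3 cannot go below, and 0.129 after adjustment over 9 ratios). Most of it came from Atp2a2, which differed by -0.55 where Pln differed by 0.16. Leaving out 1 heart gave 0.66 to 0.78. The length and GC offset gave 0.39, still without overlap, while the offset on coding length gave 0.01.

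**Figure D2:**
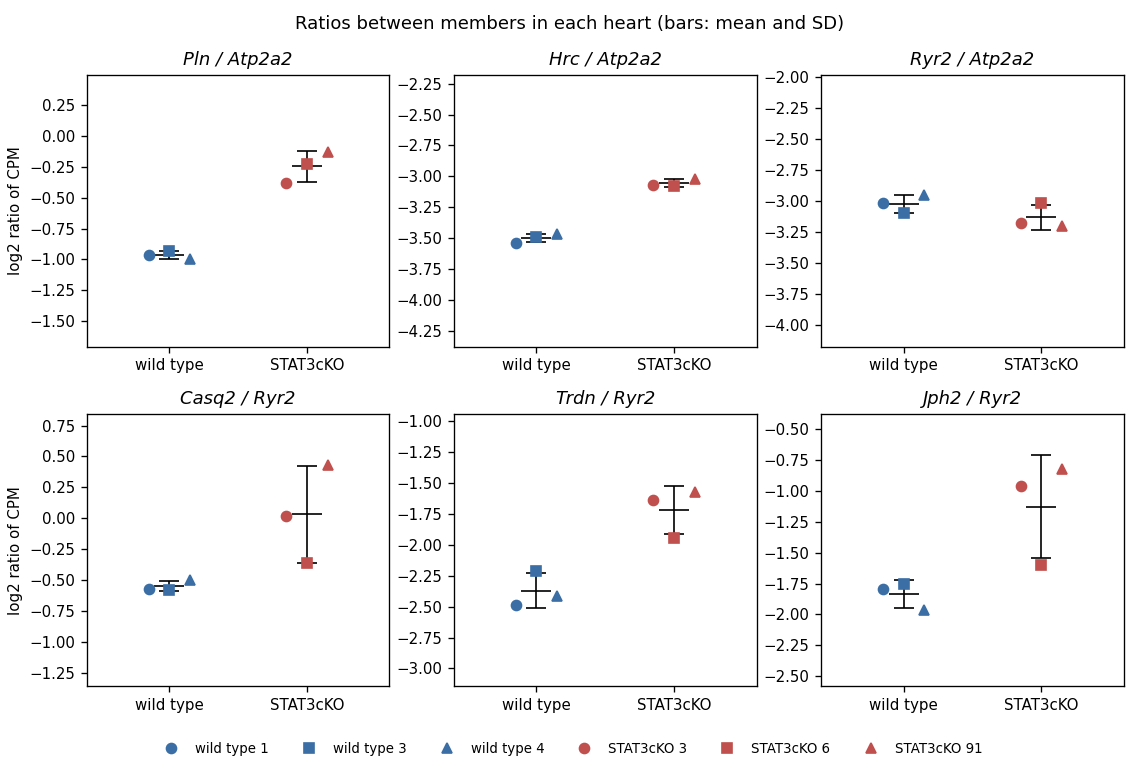
Log2 ratio of CPM between pairs of the genes in each heart (y axes span the same log2 range), with a symbol for each heart and bars for the mean and SD of 3 hearts. The ratios of Pln and of Hrc to Atp2a2 separated the groups, while that of Ryr2 to Atp2a2 overlapped.

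Sln encodes sarcolipin, a pump inhibitor that in the mouse heart is mainly atrial (chromosome 9, 53850251 to 53853849, plus strand). It held 3, 452 and 105 counts in wild type replicates 1, 3 and 4, which is 0.154, 27.0 and 5.76 CPM. In STAT3cKO replicates 3, 6 and 91 it held 165, 1 and 0 counts, which is 11.3, 0.0649 and 0 CPM, and the count of 0 allows up to 0.164 CPM (3 counts, counting error only). Hearts of both groups were high and hearts of both groups were near 0, so the groups overlapped. Sln was not called (log2 fold change -1.57 ± 2.12 SE, edgeR adjusted p = 0.637), and without wild type replicate 3 the sign turned (0.32).

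The 3 genes with the profile closest to Sln, out of 11311 compared over the 6 hearts, were Myl7, Mybphl and Myl4. Likeness was the root mean square difference between log2 CPM profiles centred on their means, and it was 0.53, 1.27 and 1.28. Myl7 and Myl4 encode the atrial myosin light chains and stand in the list of atrial markers. Myl7 was at 0.875, 161 and 23.4 CPM in the controls and 34.9, 0.844 and 0.985 CPM in the knockouts. Myl4 was at 2.57, 174 and 34.4 CPM in the same wild-type hearts and at 64.0, 5.0 and 6.62 CPM in the STAT3cKO hearts. The same 3 hearts were thus high in Sln, Myl7 and Myl4, 2 of wild type and 1 of STAT3cKO. Of the 13 atrial markers 10 were tested, of which 4 fell (Gja5, Kcnj3, Sbk2 and Tbx5) and 0 rose. With the offset 3 fell, without Tbx5. This compares with 12.6% of all genes tested that fell, or 7.91% with the offset. The summed level of the list was 184 to 640.3 CPM in wild type and 166 to 812 CPM in STAT3cKO. The highest sum is that of STAT3cKO replicate 91, which was low in Sln, Myl7 and Myl4, and Nppa alone, a natriuretic peptide gene, made 721 CPM of it. Bmp10 was at 0 in every wild-type heart, held at most 3 counts in any STAT3cKO heart and was not tested. Without wild type replicate 3 and STAT3cKO replicate 3, which held the most Myl7 in their groups, Casq1 was called (-1.18, edgeR adjusted p = 0.0143) and Atp2a2 (-0.59, adjusted p = 0.0807) and Ryr2 (-0.71, adjusted p = 0.0538) were not, with 2 hearts left in each group. This alternative was added after the data were seen. It called 708 genes higher and 666 lower of 14645 tested, where the fit on all 6 hearts called 1918 and 1820 of 14484.

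**Figure D3:**
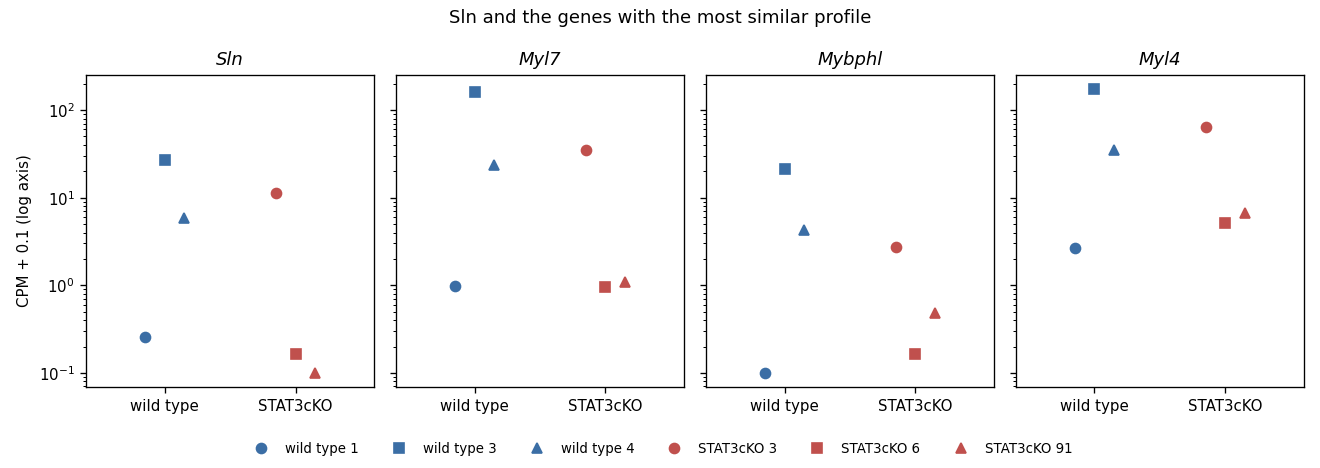
CPM plus 0.1 (log axis) of Sln, Myl7, Mybphl and Myl4 in each of the 6 hearts. Wild type replicates 3 and 4 and STAT3cKO replicate 3 were high for each of the 4 genes, and the other hearts were low.

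Ryr2 encodes the release channel (chromosome 13, 11553099 to 12106945, minus strand; its promoter is shown above). Wild-type hearts held 1409, 1332 and 1600 CPM and STAT3cKO hearts 918, 1104 and 738 CPM. Every STAT3cKO heart was below every wild-type heart, and replicate 91 was again the lowest. The mean fell by 36.4%, from 1447 ± 138 to 919.9 ± 183 CPM (SD, n = 3 each); on the log2 scale it differed by -0.65 ± 0.14 (SE; edgeR adjusted p = 0.00603). The call held without any 1 heart (adjusted p at most 0.0293). Ryr2 has one of the longest transcripts, 16814 nt, and in the longest of the 10 length classes 39.1% of genes were called lower. The offset gave -0.16, not called (adjusted p = 0.364, within 1.6e-08 to 0.364 over all alternatives).

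The ratio of release channel to pump RNA did not separate the groups. The log2 ratio of Ryr2 to Atp2a2 ran -3.02, -3.10 and -2.95 across the controls and -3.18, -3.02 and -3.20 across the knockouts, and the groups overlapped (difference -0.11, exact permutation p = 0.3, adjusted p = 0.337 over 9 ratios). With the offset the difference was 0.18, of opposite sign, and the groups did not overlap.

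The partners that hold the channel in place were not called. Trdn encodes triadin, which ties RyR2 to calsequestrin (chromosome 10, 33083483 to 33476709), and stood at 250.4, 288 and 300.2 CPM in the controls and 295, 288 and 249 CPM in the knockouts. Jph2 encodes junctophilin 2, which spans the cleft between the plasma membrane and the store (chromosome 2, 163336242 to 163398049), and stood at 406, 395 and 412 CPM in the controls and 471, 363 and 417 CPM in the knockouts. The groups overlapped for both, with log2 fold changes of -0.01 ± 0.10 for Trdn (SE; edgeR adjusted p = 0.941) and 0.04 ± 0.11 for Jph2 (adjusted p = 0.788). Jph2 had the tightest wild-type values of the 10 genes, with a coefficient of variation of 2.19%, against 12.9% in STAT3cKO.

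Set against Ryr2, both partners stood higher in the knockouts. The log2 ratio of Trdn to Ryr2 ran -2.49, -2.21 and -2.41 across the controls and -1.64, -1.94 and -1.57 across the knockouts. That of Jph2 to Ryr2 ran -1.79, -1.75 and -1.96 across the controls and -0.96, -1.60 and -0.82 across the knockouts. Neither pair of groups overlapped, with differences of 0.66 and 0.70 (exact permutation p = 0.1 each, the smallest possible; adjusted p = 0.129 over 9 ratios). These differences came mostly from Ryr2, at -0.65 where Trdn was at -0.01 and Jph2 at 0.04. Both ratios share Ryr2, so they are not independent. The offset left 0.20 and 0.27, with overlapping groups. D830005E20Rik, an RNA gene on the strand opposite Trdn that was picked with its values in view, had 363, 413 and 501 counts in the controls but 89, 108 and 91 in the knockouts. The strand setting of the counting is not given, so its reads and those of Trdn are not surely separate.

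The calsequestrins, which bind calcium inside the store, differed from each other. Casq2 encodes the cardiac form (chromosome 3, 102086415 to 102146514) and stood at 947, 891 and 1130 CPM in the controls and 933, 858 and 995 CPM in the knockouts. The groups overlapped (log2 fold change -0.09 ± 0.11 SE, edgeR adjusted p = 0.583). Casq1 encodes the skeletal muscle form (chromosome 1, 172209894 to 172219895, minus strand) and was rare, at 230, 370 and 212 counts in the controls but 78, 94 and 78 in the knockouts. In CPM these were 11.8, 22.1 and 11.6 against 5.32, 6.10 and 4.27, so the groups did not overlap and wild type replicate 3 was the highest. The mean fell by 65.5%, from 15.2 ± 5.97 to 5.23 ± 0.919 CPM (SD, n = 3 each); on the log2 scale it differed by -1.54 ± 0.27 (SE; edgeR adjusted p = 0.00361). The offset gave -1.63 (adjusted p = 0.00389), and it was called under each of the 18 alternatives (adjusted p from 1.23e-17 to 0.0229). Without wild type replicate 3 the log2 fold change was -1.17 (adjusted p = 0.003).

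The log2 ratio of Casq1 to Casq2 ran -6.31, -5.33 and -6.59 across the controls and -7.42, -7.11 and -7.82 across the knockouts. The groups did not overlap (difference -1.38, or -1.44 with the offset, exact permutation p = 0.1, the smallest possible; adjusted p = 0.129 over 9 ratios). The ratio of Casq2 to Ryr2 differed by 0.58, with 1.02, 0.777 and 1.35 counts of Casq2 per count of Ryr2 in STAT3cKO hearts and 0.669 to 0.706 in wild type. Most of this difference came from Ryr2, at -0.65 where Casq2 was at -0.09. The difference was 0.05, with overlap, under the offset.

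Other skeletal muscle markers moved in both directions. Of 16 listed 9 were tested, and 2 rose (Tnnt3 2.11 and Pvalb 2.22 on the log2 scale) and 1 fell (Myl1 -0.98). This compares with 13.2% of all genes tested that rose and 12.6% that fell. Tnnt3 and Pvalb held at most 36 counts in any heart, and with the offset Pvalb was not called (edgeR adjusted p = 0.0776). The stricter low-count filter needs a mean count of at least 50, which removed Tnnt3 and Pvalb, so it could not test their rise. In 5 of the 6 fits without 1 heart 1 marker rose, the exception being that without wild type replicate 3. None fell without wild type replicate 1 or without STAT3cKO replicate 91. The summed level of the list was 228 to 373 CPM in wild type and 144 to 459.6 CPM in STAT3cKO, most of it Acta1, while Myh4, the myosin of fast fibres, was at 0 in all hearts and Myh1 and Myh2 held at most 1 count in any heart. Gm17224, on the strand opposite Casq1 and also picked with its values in view, had 11, 16 and 20 counts in the controls but 29, 56 and 66 in the knockouts. Profiles close to that of Casq1 were those of Pkhd1l1 and Cacna1g (root mean square differences 0.19 and 0.21 over the 6 hearts). Cacna1g, a T-type calcium channel gene, was at 21.6, 35.2 and 18.5 CPM in the controls and 12.1, 12.5 and 9.75 CPM in the knockouts, and like Casq1 was highest in wild type replicate 3.

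Hrc encodes the histidine-rich calcium-binding protein, which sits in the store and touches both triadin and the pump (chromosome 7, 45335269 to 45338973). Wild-type hearts held 985, 1014 and 1113 CPM and STAT3cKO hearts 995, 1057 and 838 CPM, and the groups overlapped (log2 fold change -0.11 ± 0.11 SE, edgeR adjusted p = 0.508). Its ratio to Atp2a2 was nearly constant within each group. The log2 ratio ran -3.54, -3.49 and -3.47 across the controls and -3.07, -3.08 and -3.02 across the knockouts, with an SD of 0.03 in each group. The groups did not overlap (exact permutation p = 0.1, the smallest possible; adjusted p = 0.129 over 9 ratios). Their difference was 0.44 and, once length and GC were taken out, 0.20, still without overlap. Most of the 0.44 came from Atp2a2, at -0.55 where Hrc was at -0.11.

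Slc8a1 encodes the exchanger NCX1 (chromosome 17, 81373105 to 81738387). Wild-type hearts held 377, 384 and 419 CPM and STAT3cKO hearts 325, 379 and 389 CPM. The groups overlapped (log2 fold change -0.11 ± 0.10 SE, edgeR adjusted p = 0.451). Under the length and GC offset the sign turned and it was called higher (0.36, adjusted p = 0.0203, within 0.0203 to 0.855 over all alternatives). That value rests on the length assigned to the gene, 18464 nt for its longest transcript. With its coding length of 2910 nt it was 0.10 (adjusted p = 0.488). The ratio of Slc8a1 to Atp2a2 differed by 0.44 (exact permutation p = 0.1, adjusted p = 0.129 over 9 ratios). With the length and GC offset it differed by 0.70, and with the offset on coding length by 0.46. Most of the 0.44 came from Atp2a2, at -0.55 where Slc8a1 was at -0.11.

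**Figure D4:**
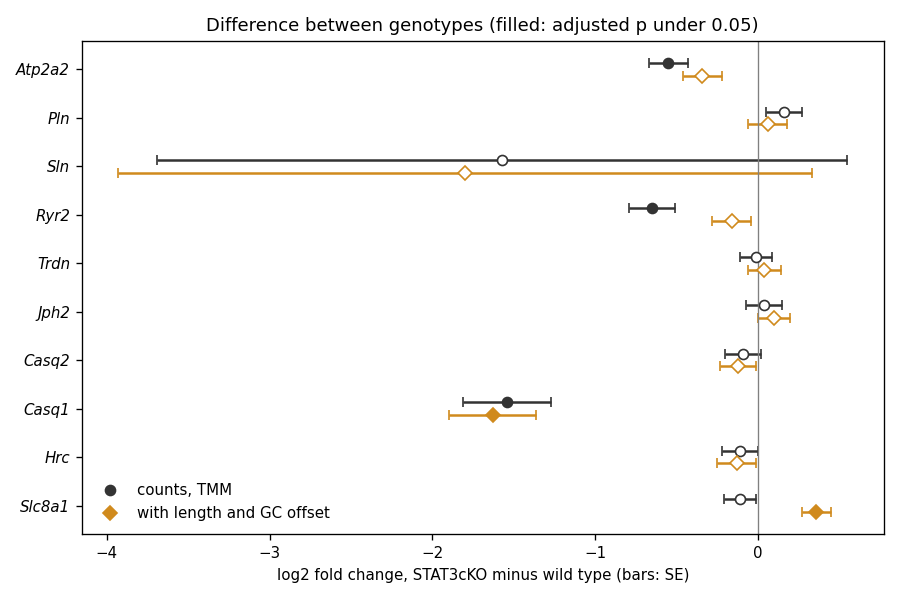
Log2 fold change (x axis, STAT3cKO minus wild type, bars SE) of the 10 genes in edgeR, without (circles) and with (diamonds) the length and GC offset; filled symbols have an adjusted p under 0.05. Casq1 stayed near -1.5 in both fits, Atp2a2 went from -0.55 to -0.34, Ryr2 from -0.65 to -0.16 and Slc8a1 from -0.11 to 0.36.

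Set beside genes of similar length, the 3 genes that fell lay below the median, which largely follows from their having been called lower. Of all genes in the classes of Atp2a2, Ryr2 and Casq1, 24.1%, 39.1% and 5.31% were called lower. In the length class of Atp2a2 (5225 to 6769 nt) the median was -0.19, against -0.55 for Atp2a2. In the longest class it was -0.31, against -0.65 for Ryr2 and -0.11 for Slc8a1. In the class of Casq1 (1802 to 2320 nt) it was 0.10. In that of Pln, Casq2 and Hrc (2321 to 2839 nt) it was 0.06, against 0.16, -0.09 and -0.11. In the classes of Jph2 and Trdn it was -0.06 and -0.12, against 0.04 and -0.01.

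**Figure D5:**
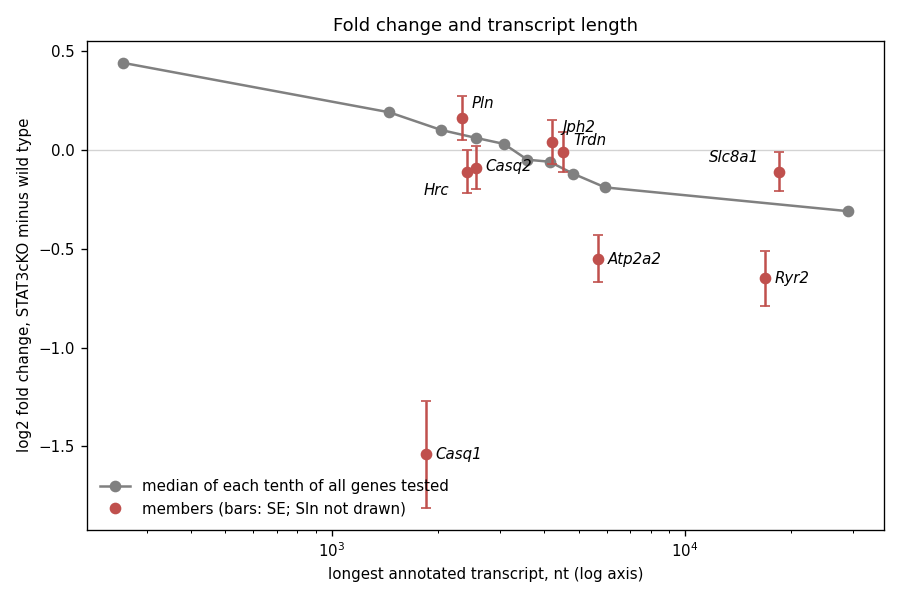
Log2 fold change (y axis) against the longest annotated transcript (x axis, log scale) for 9 of the genes (Sln, at -1.57 ± 2.12, is not drawn), with SE bars, and the median of each of the 10 length classes of all tested genes in grey, placed at the middle of its length range. The grey medians go down from 0.44 to -0.31, and of the 9 genes drawn Casq1, Atp2a2 and Ryr2 lie farthest below them.

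Per kilobase of the longest transcript, the inhibitor and the pump led in wild type, Pln with 2576 ± 60.6 CPM per kilobase (SD, n = 3) and Atp2a2 with 2066 ± 90.8. The proteins of the store, Hrc (430.3 ± 27.8) and Casq2 (387 ± 48.8), followed. Then came the release complex with Jph2 at 96.1 ± 2.11, Ryr2 at 86.1 ± 8.19 and Trdn at 61.9 ± 5.75. The lowest were Slc8a1 at 21.3 ± 1.22, Sln at 8.31 ± 10.7 and Casq1 at 8.22 ± 3.23. Neighbours overlapped for Hrc and Casq2, Jph2 and Ryr2, Slc8a1 and Sln, and Sln and Casq1, and the other neighbours did not. In STAT3cKO hearts Pln stood at 2886 ± 326 and Atp2a2 at 1414 ± 197 CPM per kilobase, and Trdn (61.4 ± 5.50) came before Ryr2 (54.7 ± 10.9), whose ranges overlapped. The order depends on the length used, since with the median transcript length Casq2 (1057) and Ryr2 (995) came next after Atp2a2 in wild type.

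Around the 10 genes, 73 further calcium genes were listed in 4 groups, with earlier results of these data known, and 67 were tested. Of these 5 rose and 14 fell, and with the length and GC offset 7 rose and 7 fell. Over all genes tested 13.2% rose and 12.6% fell, and with the offset 10.9% rose and 7.91% fell. Without wild type replicate 3, only 2 of these calcium genes rose. Among partners of the release complex 3 of 17 rose and 3 fell (median log2 fold change 0.06), and with the offset 5 rose and 3 fell. S100a1, a calcium sensor that binds RyR2 and the pump, rose from 434 ± 19.5 to 864 ± 39.0 CPM (SD, n = 3 each; log2 fold change 0.99 ± 0.09 SE, edgeR adjusted p = 5.74e-05). Speg, a kinase of the junction, rose (0.38, adjusted p = 0.00848), while Cacna2d1, a subunit of the L-type channel (-0.55, adjusted p = 0.00171), and Jph1, a relative of Jph2 (-0.53, adjusted p = 0.00754), fell. These 4 were also called with the offset, at log2 fold changes of 0.57, 0.75, -0.28 and -0.39. Of the other L-type channel genes in the list, Cacna1c (0.03, edgeR adjusted p = 0.845) and Cacnb2 (0.06, adjusted p = 0.889) were not called. With the offset Cacna1c was called higher (0.50, adjusted p = 0.00325) and Cacnb2 was not called (0.17, adjusted p = 0.708).

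Among regulators of the pump and of phospholamban phosphorylation 1 of 23 rose and 6 fell (median -0.15), and with the offset 1 rose and 3 fell. The shares over all genes tested were 13.2% higher and 12.6% lower, or 10.9% and 7.91% with the offset. Camk2b, a calcium/calmodulin-dependent kinase gene, fell from 17.8 ± 0.938 to 9.64 ± 1.57 CPM (log2 fold change -0.89 ± 0.14 SE, edgeR adjusted p = 0.00107). Prkar2a, a regulatory subunit of protein kinase A (-0.67), and Ppp1r3a, a targeting subunit of protein phosphatase 1 (-0.70), fell too, and each of these 3 was called with the offset. Calm2, a calmodulin gene, rose (0.40) but was not called with the offset (edgeR adjusted p = 0.284).

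Among other calcium transporters 1 of 17 rose and 5 fell (median -0.12), and with the offset 1 fell and 0 rose. Atp2b4, a plasma membrane pump, fell from 48.4 ± 1.58 to 25.2 ± 5.09 CPM (log2 fold change -0.94 ± 0.13 SE, edgeR adjusted p = 0.00053) and was called with the offset (-0.53). The receptors for inositol trisphosphate Itpr1 (-0.66) and Itpr3 (-0.60) and the plasma membrane pump Atp2b1 (-0.46) fell but were not called with it. None of the 10 calcium-binding and folding proteins of the reticulum was called. Sdf4 had the smallest p (log2 fold change 0.22, edgeR adjusted p = 0.107), and with the offset it was called higher (0.42, adjusted p = 0.00999).

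Markers of cell types moved beside these genes. Over all genes tested 13.2% were called higher and 12.6% lower (10.9% and 7.91% with the offset). Of 13 cardiomyocyte markers 6 rose and 0 fell, among them Myl2 (0.80), Tnnc1 (0.83), Cox6a2 (0.77) and Mb (0.69), with a summed level of 61345 to 67825 CPM in wild type and 77695 to 86486 CPM in STAT3cKO. With the offset 6 were higher and 0 lower, these 4 at 0.47, 0.43, 0.36 and 0.40, and Atp2a2 and Ryr2 were not called. The 6 were not the same set. Tnni3 lost its call with the offset (0.27, edgeR adjusted p = 0.0993). Ttn, at 0.04 and not called without the offset, gained one (0.64, adjusted p = 0.00462). Markers that fell were 8 of 10 endothelial (Cdh5 -1.09, Flt1 -0.82, Kdr -0.77, Pecam1 -0.70), 7 of 10 smooth muscle and pericyte (Acta2 -2.09, Lmod1 -2.58, Notch3 -0.76, Cspg4 -0.61) and 6 of 10 macrophage (Cd163 -1.68, Csf1r -1.09, Cx3cr1 -1.25, Itgam -0.99) genes, and 0 of each rose. With the offset 7 endothelial, 4 smooth muscle and pericyte and 7 macrophage markers fell, and Cspg4 was not called (-0.31, edgeR adjusted p = 0.051). The summed levels of these 3 lists were 1476 to 1694, 1608 to 1695 and 308 to 372 CPM in wild type and 977 to 1124, 894 to 1176 and 176 to 268 CPM in STAT3cKO. Of 10 fibroblast markers 1 rose (Dcn 0.79) and 2 fell (Col1a2 -0.72, Col1a1 -0.51, the latter not called with the offset), with sums of 2824 to 4210 and 3649 to 4601 CPM. The part of cell makeup in the results was not tested.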

How the data were processed

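What was deposited is the authors' raw counts, whole reads per gene symbol in each of 6 hearts, without normalization. HISAT2 and GRCm38 are named, per the submitters' processing notes, and the sources used here give neither the aligner's version nor the counting program, annotation, strand setting or handling of multiply mapped reads. Trizol served for RNA extraction, per the labels' protocols. Members and gene lists were chosen with earlier results of these data known.

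Genes were kept by filterByExpr (minimum count 10), scaled by TMM and compared with edgeR 4.0.16 (robust quasi-likelihood F test, genotype the only term) in R 4.3.3, on the whole table. Standard errors are the log2 fold change over the square root of F. On simulated data the fit returned the folds it was given. Those data had few changed genes, the same spread setting for every gene and no length trend, unlike the real counts. Ratios are differences of log2 CPM (prior count 2). For the offset, log2 CPM centred on each gene was regressed, heart by heart, on splines (5 degrees of freedom) of log2 length and GC content of the longest GENCODE M21 transcript. Alternatives also used DESeq2 1.42.0 and limma 3.58.1. Named genes were Stat3, the 10 members, up to 4 called genes with the smallest adjusted p of each list (or the one with the smallest p) and the 3 closest profiles for Sln and Casq1, of which 1 is not reported here. Strit1 and Mcub were matched through RefSeq synonyms, and 71 of the 73 listed calcium genes were in the table. Of the 10 members, 7 overlap another annotated gene, which leaves their counts uncertain.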

Additional observations from a re-analysis of the deposited data

How the results depend on the processing

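Of 18 alternatives to the gene-level fit, 2 were added after the data were seen: the offset with coding length, and leaving out the 2 hearts with the highest Myl7 (wild type replicate 3 and STAT3cKO replicate 3). The number of members called lower stayed at 3 and the number called higher at 0 in the fits that each left out 1 heart and under every scaling, filter and tool. With the length and GC offset 1 was lower and 1 higher. Without the 2 hearts of highest Myl7, 1 was lower, with Atp2a2 at -0.59 (edgeR adjusted p = 0.0807) and Ryr2 at -0.71 (adjusted p = 0.0538). That fit has fewer samples, and Sln did not pass its filter. Its calls over all genes were also fewer, 708 higher and 666 lower of 14645 tested, in place of 1918 and 1820 of 14484. With the coding length offset 3 were lower, Atp2a2 (-0.36), Casq1 (-1.49) and Pln, whose sign turned (-0.36, adjusted p = 0.0451), while Ryr2 was not called (-0.18). Over all genes that offset called 1692 higher and 1474 lower. Among genes not called, signs turned for Trdn (0.04 and 0.08 with the 2 offsets), Jph2 (-0.07 with library size alone, 0.00 with the coding length offset and -0.07 without the 2 hearts of highest Myl7) and Slc8a1 (0.36 and 0.10 with the 2 offsets). Leaving out 1 heart gave -0.09 to 0.07 for Trdn, -0.05 to 0.13 for Jph2, -0.16 to 0.01 for Casq2 and -8.20 to 0.32 for Sln. The cause of these changes was not tested. Scaling by library size alone shifted the median over all genes tested to -0.11 on the log2 scale, and its calls were 1109 higher and 2714 lower, in place of 1918 and 1820; relative to that median Jph2 stayed above 0. Of the listed calcium genes, 2 rose with library size alone and without the 2 hearts of highest Myl7, 2 to 5 rose and 11 to 15 fell without 1 heart, and 7 fell with the length and GC offset and 8 without the 2 hearts. Over all genes the fits without 1 heart called 1237 to 1887 higher and 1198 to 1999 lower. Log2 ratio differences with the length and GC offset were 0.39 (Pln to Atp2a2), 0.18 (Ryr2 to Atp2a2), 0.70 (Slc8a1 to Atp2a2), 0.05 (Casq2 to Ryr2), 0.20 (Hrc to Atp2a2), 0.20 (Trdn to Ryr2) and 0.27 (Jph2 to Ryr2). With the coding length offset they were 0.01 (Pln to Atp2a2), 0.18 (Ryr2 to Atp2a2), 0.46 (Slc8a1 to Atp2a2), 0.14 (Casq2 to Ryr2), 0.34 (Hrc to Atp2a2), 0.26 (Trdn to Ryr2) and 0.19 (Jph2 to Ryr2). No paired analysis was possible because the groups share only 1 replicate number. Depth limits Sln most, with 0 or 1 count in 2 hearts.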
